A study of Mus musculus with 8 samples.

Results

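CC chemokine ligands are small secreted proteins that draw leukocytes into tissue, and 10 of the 19673 genes in the deposited table were chosen by gene name for this account: Ccl2, Ccl3, Ccl4, Ccl5, Ccl6, Ccl7, Ccl8, Ccl9, Ccl12 and Ccl22. All 10 were listed once each. RNA came from live CD45+CD3e+CD8+ cells sorted from tumours that Py8119, a mouse mammary tumour cell line, had formed in mice. In the KO group the host genotype was Mtdh KO (Mtdh encodes metadherin) and in the WT group it was WT, with 4 biological replicates each, called libraries 1 to 4 here. Both groups received the same tumour line and no other treatment is given in the labels; host age, strain and sex, the kind of Mtdh allele and any pooling of animals are not given in the sources used here. The question is what the host Mtdh KO does to the RNA of CD8 T cells inside the tumour.

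CC chemokines bind G protein-coupled receptors of the CCR family, which turn the ligand gradient into directed movement of the cell. In tumours, monocytes and macrophages are known sources of the ligands of CCR2 and CCR1. Activated CD8 T cells are known to release Ccl3, Ccl4 and Ccl5. Dendritic cells and macrophages are known to make Ccl22, a ligand of CCR4 that attracts regulatory T cells.

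The family is named for a pair of adjacent cysteines in the mature protein. The coding stretch around their codons is shown for 9 of the genes because it is what the family shares outside the rule and because neighbouring genes that look alike could share reads. Each sequence runs 5′ to 3′ on the coding strand, with the pair of cysteine codons in capitals, and comes from the GENCODE M21 transcript with the longest coding region (build GRCm38).
Ccl2: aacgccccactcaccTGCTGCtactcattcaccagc
Ccl7: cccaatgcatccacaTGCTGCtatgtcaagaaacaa
Ccl12: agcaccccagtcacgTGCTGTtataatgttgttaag
Ccl8: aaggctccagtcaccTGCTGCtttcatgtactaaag
Ccl6: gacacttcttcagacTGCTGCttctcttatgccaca
Ccl9: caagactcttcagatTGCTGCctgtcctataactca
Ccl5: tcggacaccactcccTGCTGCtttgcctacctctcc
Ccl4: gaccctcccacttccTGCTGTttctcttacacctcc
Ccl22: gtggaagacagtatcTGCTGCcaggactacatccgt

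The codon pair was TGCTGC in 7 of the 9 genes and TGCTGT in Ccl4 and Ccl12. It lay in exon 2 of a transcript of 3 exons in 7 genes, and in exon 3 of 4 in Ccl6 and Ccl9. On GRCm38 the stretches lie, on the forward strand, at chr11:82036491-82036526 (Ccl2), chr11:82046523-82046558 (Ccl7), chr11:82102619-82102654 (Ccl12), chr11:82116041-82116076 (Ccl8), chr11:83663467-83663502 (Ccl4) and chr8:94746919-94746954 (Ccl22). On the reverse strand they lie at chr11:83529227-83529262 (Ccl5), chr11:83575911-83575946 (Ccl9) and chr11:83589371-83589406 (Ccl6). Over the 45 pairs of genes, coding sequences were identical at 40.9% to 68.1% of aligned positions, highest for Ccl3 with Ccl4 and next, at 65.1%, for Ccl6 with Ccl9 and for Ccl8 with Ccl12. The longest run of bases shared exactly by a pair of transcripts was 25, in Ccl6 and Ccl9.

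In the authors' table, on mm39, the genes form 2 clusters on chromosome 11. The first holds Ccl2 (81926397 to 81928279), Ccl7 (81936538 to 81938351), Ccl12 (81992671 to 81994226) and Ccl8 (82006011 to 82007625). The other holds Ccl5 (83416604 to 83421344), Ccl9 (83463745 to 83469462), Ccl6 (83478708 to 83483913), Ccl3 (83538670 to 83540181) and Ccl4 (83553410 to 83555509). Ccl22 lies on chromosome 8 (95472218 to 95478327). No other listed gene overlaps any of the 10, so reads of an overlapping listed gene do not enter their values.

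Values are gene-level read counts divided by a size factor for each library, called normalized values here, and their sums were 21360583 to 26059429 per library. The reads were estimated to be copies of far fewer distinct cDNA fragments, from 116000 (KO library 2) to 628000 (WT library 3) per library, so that 1 fragment was worth a normalized value of 149 in KO library 2 and 24.1 to 79.8 in the other 7. Mtdh, the targeted gene, was at 5118, 4622, 2538 and 3341 in KO libraries 1 to 4 and at 9324, 12745, 6407 and 7974 in WT libraries 1 to 4 (log2 fold change -1.23, SE 0.25, limma adjusted p = 0.0400), with no overlap between the groups. Mtdh RNA thus remained in every KO library, at 0.426 of WT by the fit (95% interval 0.297 to 0.612). The call ended without KO library 2, 3 or 4 or WT library 1 or 2 (limma adjusted p up to 0.241), while the log2 fold change there was -1.04 to -1.33. Cd8a was present in every library (1565 to 13355), and so was the macrophage gene Lyz2 (75242 to 211543), a gene not known for expression in T cells. The 12 CD8 T cell markers, all above 0 in every library, summed to 21759 to 50480 in KO and 8326 to 29256 in WT. Their sum was lowest in WT library 2 and highest in KO library 3. Some of them were near the floor, with Cd3d under 1 fragment in 3 libraries and Cd2 in 2. The 16 macrophage and monocyte markers summed to 111319 to 251527 in KO and 187775 to 292774 in WT, lowest in KO library 3, and 1 of them, Aif1, was at 0 in 5 libraries. Most of each sum was Lyz2. In such bulk samples, fewer cells of a type and less RNA per cell cannot be told apart.

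None of the 10 ligands differed between KO and WT hosts by limma's test over 16120 genes with Benjamini-Hochberg adjustment at 0.05, a threshold that 0.236% of all tested genes passed (0.211% higher and 0.0248% lower in KO). At an unadjusted p under 0.05 there was 1 of the 10, Ccl4, where 6.7% of all tested genes lay under it. For none of the 10 did the KO values clear all WT values in either direction; 2.02% of tested genes had all KO libraries above all WT libraries and 2.08% had them below. The fitted log2 fold change, KO minus WT, was positive for 4 ligands and negative for 6 (43.4% of all tested genes were positive), with a median of -0.09 beside -0.12 over all genes tested. Without KO library 2 the median of the ligands was 0.71. All 10 met the minimum mean of 10, but 5 of them rest on less than 3 fragments in at least 2 libraries (Ccl3, Ccl5, Ccl8, Ccl12 and Ccl22).

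Levels of different genes were compared per kilobase (kb) of transcript. Per kb, the mean normalized value over the 8 libraries was highest for Ccl2, at 4903 ± 1346 (SD, n = 8), followed by Ccl6 at 3258 ± 966, Ccl7 at 1768 ± 739, Ccl9 at 1523 ± 437 and Ccl4 at 1053 ± 466. Below them came Ccl3 at 561 ± 374, Ccl5 at 316 ± 235, Ccl12 at 297 ± 215, Ccl8 at 238 ± 234 and Ccl22 at 55.8 ± 39.1. Ccl2 was above Ccl6, Ccl6 above Ccl7, and Ccl4 above Ccl3 in 8 of 8 libraries, each by more than the larger SD, and Ccl9 was above Ccl4 in 7. Ccl7 and Ccl9, and each pair of neighbours from Ccl3 down to Ccl22, differed by less than the larger SD. By normalized value not divided by length, Ccl2, Ccl6, Ccl7 and Ccl9 together made up 82.4% to 95.1% of the sum of the 10 ligands in each library. Ccl5, known as an abundant transcript of effector CD8 T cells, made up 0.00575% to 3.46% of that sum.

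**Figure D1:**
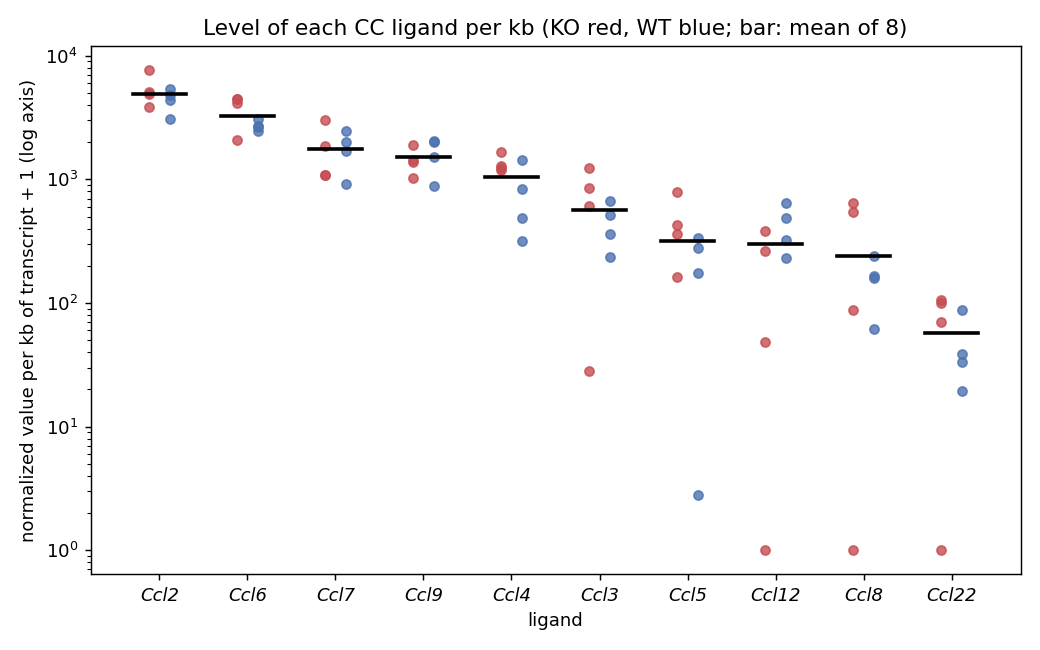
Normalized value per kb of transcript plus 1, on a log axis, for the 10 ligands (x axis) in each KO (red) and WT (blue) library, with the mean of 8 libraries as a bar. Means run from 4903 for Ccl2 to 55.8 for Ccl22, and single libraries fall to 0 for Ccl12, Ccl8 and Ccl22.

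Among the ligands of CCR2, the receptor by which inflammatory monocytes leave the blood and enter tissue, Ccl2 and Ccl7 were the abundant ones. Ccl2, the main monocyte attractant, was at 6238, 4167, 3108 and 3973 in KO libraries 1 to 4 and at 2516, 4405, 3895 and 3584 in WT libraries 1 to 4. The groups overlapped, with KO library 1 the highest and WT library 1 the lowest of the 8. The mean was 4372 ± 1327 in KO and 3600 ± 798 in WT (SD, 4 libraries each), with a log2 fold change of 0.26 (SE 0.24, 95% interval -0.24 to 0.77, limma adjusted p = 0.834). In fold, the interval of KO over WT runs from 0.846 to 1.70. Without KO library 1 the log2 fold change was 0.08, and without WT library 1 it was 0.10.

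Ccl7, which attracts monocytes through CCR2 as well, was at 2421, 871, 866 and 1483 in KO and at 735, 1346, 1617 and 1988 in WT. KO library 1 again held the highest value and WT library 1 the lowest. Its means were 1410 ± 734 in KO and 1421 ± 528 in WT (SD, 4 libraries each), with a log2 fold change of -0.06 (SE 0.36, 95% interval -0.80 to 0.69, limma adjusted p = 0.986). Ccl2 exceeded Ccl7 by 1.80-fold (WT library 4) to 4.78-fold (KO library 2) in normalized value within a library.

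Ccl12, another monocyte attractant of the same cluster, was far lower, at 25.3, 0, 140 and 204 in KO and 123, 261, 347 and 174 in WT. KO libraries 1 and 2 were below every WT library, while KO libraries 3 and 4 lay within the WT range. The KO libraries averaged 92.3 ± 96.1 and the WT libraries 226 ± 98.8 (SD, 4 libraries each), with a log2 fold change of -2.84 (SE 1.49, 95% interval -5.94 to 0.27, limma adjusted p = 0.767). Both low KO values were under 1 fragment of their library, 79.8 in KO library 1 and 149 in KO library 2. Without KO library 2 the log2 fold change was -1.21, so the size of the difference depends on that library.

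Ccl8, an agonist of mouse CCR8 that lies beside Ccl12, was at 278, 0, 44.2 and 331 in KO and 83.7, 80.4, 123 and 30.7 in WT. The highest and the lowest of the 8 values were both in KO. In 5 libraries the value stood for less than 3 fragments. The mean was 163 ± 165 in KO and 79.5 ± 37.8 in WT (SD, 4 libraries each), whereas limma gave a log2 difference of -0.67 (SE 1.72, 95% interval -4.26 to 2.91, limma adjusted p = 0.958). The arithmetic means and the log2 scale thus point in opposite directions, and without KO library 2 the log2 fold change was 1.16.

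Ccl6 and Ccl9 are rodent chemokines of myeloid cells that signal through CCR1, and by normalized value they ranked with Ccl2 as the most abundant of the 10. Ccl6 was at 6381, 6004, 2998 and 6490 in KO and 3529, 3792, 3882 and 4455 in WT. Of the KO libraries 3 were above every WT library, and KO library 3 was below every WT library. The mean was 5468 ± 1660 in KO and 3914 ± 390 in WT (SD, 4 libraries each), with a log2 fold change of 0.42 (SE 0.24, 95% interval -0.08 to 0.92, limma adjusted p = 0.770). Without KO library 3 it was 0.69 (limma adjusted p = 0.244). The macrophage marker sum, mostly Lyz2, was the lowest of the 8 in KO library 3. The mean log2 of those markers was lowest in KO library 2 (10.18, beside 10.20 in KO library 3), where Ccl6 was at 6004. Taken relative to the mean log2 of the macrophage markers, Ccl6 had a log2 fold change of 0.90 (limma adjusted p = 0.686), beside a median of 0.36 over all genes on that scale. Relative to the CD8 T cell markers it was -0.32, beside a median of -0.86 over all genes.

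Ccl9 was at 5708, 4159, 3077 and 4346 in KO and 2633, 6121, 4531 and 6051 in WT. WT libraries held both ends of the range, so the groups overlapped fully. Its means were 4322 ± 1080 in KO and 4834 ± 1640 in WT (SD, 4 libraries each), with a log2 fold change of -0.12 (SE 0.26, 95% interval -0.67 to 0.43, limma adjusted p = 0.949). Ccl9 and Ccl6 stood in a ratio (Ccl6 over Ccl9) of 1.12, 1.44, 0.974 and 1.49 in KO and 1.34, 0.619, 0.857 and 0.736 in WT. The order of these neighbouring genes therefore differed between libraries of the same group.

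Ccl3, Ccl4 and Ccl5 are released by activated T cells and natural killer cells, and Ccl3 and Ccl4 also by macrophages. Ccl4 was at 1097, 784, 848 and 809 in KO and 321, 210, 939 and 550 in WT. KO libraries lay close together, WT libraries 1, 2 and 4 were below all of them, and WT library 3 was above 3 of the 4. By estimate these values stood for 3.19 fragments (WT library 2) to 38.9 fragments (WT library 3), so the lowest rest on few fragments. The mean was 884 ± 144 in KO and 505 ± 322 in WT (SD, 4 libraries each), or 2.03-fold on the log2 scale (log2 fold change 1.02, SE 0.42, 95% interval 0.13 to 1.91). With an unadjusted limma p of 0.0265 and an adjusted p of 0.724 it did not pass. Relative to the CD8 T cell markers the log2 fold change of Ccl4 was 0.27, beside a median of -0.86 over all genes, and relative to the macrophage markers it was 1.49, beside a median of 0.36. Subtracting a marker mean shifts every gene by the same amount, so the distance of Ccl4 from the median is unchanged by construction. Without WT library 2, where the CD8 T cell markers were lowest, the log2 fold change of Ccl4 was 0.67.

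Ccl3, the neighbour of Ccl4 on the opposite strand, was at 942, 20.9, 466 and 656 in KO and 275, 181, 507 and 392 in WT. KO library 2 held the lowest value, under 1 fragment, while Ccl4 was at 784 in the same library. As 1 fragment was worth 149 there, both values rest on few fragments. The ratio of Ccl3 to Ccl4 was 0.0267 there and 0.540 to 0.860 in the other 7 libraries. The mean of Ccl3 was 521 ± 387 in KO and 339 ± 141 in WT (SD, 4 libraries each), with a log2 fold change of -0.16 (SE 0.86, 95% interval -1.97 to 1.64, limma adjusted p = 0.982). Without KO library 2 the log2 fold change was 1.06 (limma adjusted p = 0.799), and without WT library 3 it was 0.06. The direction of Ccl3 thus depends on single libraries.

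Ccl5 was at 85.8, 193, 422 and 228 in KO and 92.1, 0.946, 178 and 147 in WT. KO library 3 held the highest value and WT library 2 the lowest, and the same libraries had the highest and lowest CD8 T cell marker sums (50480 and 8326). The mean was 232 ± 140 in KO and 104 ± 77.5 in WT (SD, 4 libraries each), with a log2 fold change of 2.10 (SE 1.33, 95% interval -0.68 to 4.88, limma adjusted p = 0.770). Without WT library 2 the log2 fold change was 0.57, relative to the CD8 T cell markers it was 1.36 (limma adjusted p = 0.835), and relative to the macrophage markers 2.58 (limma adjusted p = 0.751). In 4 libraries the value stood for less than 3 fragments, and in WT library 2 for less than 1.

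Ccl22 was at 219, 0, 231 and 153 in KO and 83.7, 71.0, 190 and 41.0 in WT. KO libraries 1 and 3 were above every WT library and KO library 2 was at 0, below all of them. The means were 151 ± 106 in KO and 96.5 ± 65.1 in WT (SD, 4 libraries each), with a log2 fold change of -0.66 (SE 1.63, 95% interval -4.07 to 2.75, limma adjusted p = 0.957). As for Ccl8, the log2 fold change without KO library 2 was of the other sign, at 1.25. Ccl17, the other CCR4 ligand and a neighbour of Ccl22, was at 1.81, 0, 0 and 35.5 in KO and 0, 0, 0 and 10.2 in WT, too low to be tested.

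**Figure D2:**
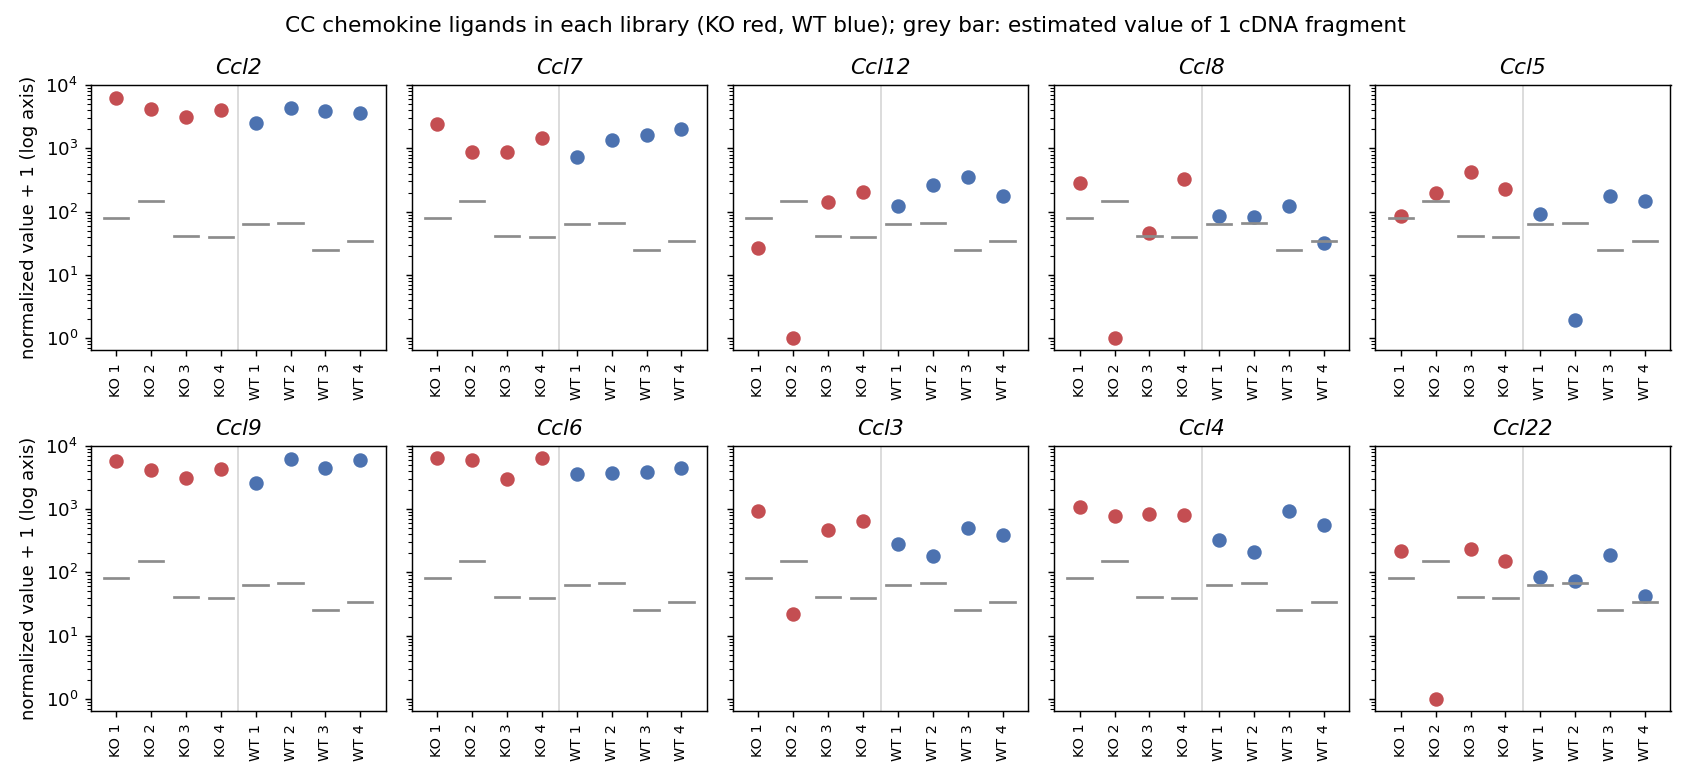
Normalized value plus 1 (log axis) of each ligand in KO libraries 1 to 4 (red) and WT libraries 1 to 4 (blue), with a grey bar at the estimated value of 1 cDNA fragment in that library. Ccl2, Ccl6, Ccl7 and Ccl9 lie above the bars in every library, whereas Ccl8, Ccl12 and Ccl22 reach 0 in KO library 2, where 1 fragment is worth 149.

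**Figure D3:**
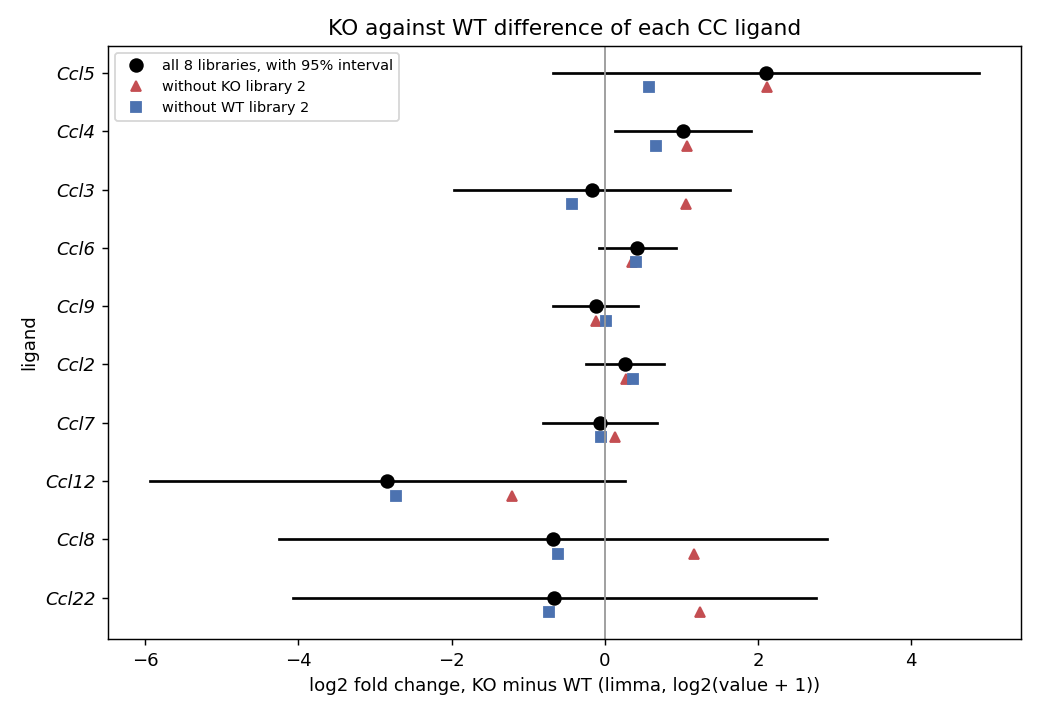
Log2 fold change (KO minus WT) of each ligand from limma with its 95% interval (black), and the same value without KO library 2 (red triangle) or without WT library 2 (blue square). Intervals are narrow for Ccl2 (-0.24 to 0.77) and wide for Ccl8 (-4.26 to 2.91). Ccl3, Ccl7, Ccl8 and Ccl22 cross 0 when KO library 2 is left out, Ccl7 only from -0.06 to 0.13.

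Of the receptors of these ligands, Ccr2 and Ccr1 were detected in every library, while Ccr3 and Ccr4 were at 0 in most. Of 15 CC receptors and atypical receptors on the list, 11 were listed in the table, 9 met the minimum mean, and 0 passed the threshold (0.236% of all genes did). Of those 9, 1 had an unadjusted limma p under 0.05, Ccr7, where 6.7% of all tested genes lay under it. Ccr2 was at 22316, 24759, 8126 and 18392 in KO and 14628, 13382, 13754 and 13561 in WT (log2 fold change 0.29, SE 0.27, limma adjusted p = 0.834). Like Ccl6, it was lowest in KO library 3 and above every WT library in the other 3 KO libraries. Without KO library 3 its log2 fold change was 0.65 (limma adjusted p = 0.235).

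Ccr1, the receptor of Ccl6 and Ccl9, ranged from 2604 to 3986 in KO and from 2677 to 4211 in WT (log2 fold change -0.12, SE 0.23, limma adjusted p = 0.932). Ccr8 ranged from 1.10 to 183 in KO and from 0 to 154 in WT, Ccr4 was at 0 in 5 libraries and Ccr3 in 7. Ccrl2, a receptor that binds chemerin and does not signal, ranged from 2355 to 5739 in KO and from 2034 to 3596 in WT (log2 fold change 0.51, SE 0.27, limma adjusted p = 0.767).

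Ccr7, which guides naive T cells and migrating dendritic cells to lymph nodes, was the receptor whose groups did not overlap, at 738, 1220, 2244 and 668 in KO and 596, 261, 400 and 615 in WT. KO library 4 was only just above WT library 4. Among all tested genes, 2.02% had every KO library above every WT library. By limma the Ccr7 difference of 1.28 on the log2 scale (SE 0.42, 95% interval 0.41 to 2.15) had an adjusted p of 0.463 and did not pass.

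Of 13 other CC ligands on the list, 6 were listed, 3 met the minimum mean (Ccl20, Ccl24 and Ccl25), and 0 passed the threshold or had an unadjusted limma p under 0.05. Ccl25, which attracts cells that carry CCR9, was the only one of them above 0 in all 8 libraries, between 31.2 and 193 in KO and between 108 and 251 in WT. Ccl11 and Ccl20 were above 0 in 1 library each. Of 15 genes that carry signals from chemokine receptors, all met the minimum mean and 0 passed the threshold or had an unadjusted limma p under 0.05, with a median log2 fold change of 0.02. They included Rgs1, a brake on chemokine receptor signals, between 9012 and 14012 in KO and between 8978 and 14725 in WT.

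The mean log2 of the 12 CD8 T cell markers differed by 0.74 (KO minus WT, exact two-sided permutation p = 0.543, n = 4 each), and 11 of the 12 had a positive log2 fold change. This mean was 7.30 in WT library 2, while the other WT libraries, at 9.84 to 10.57, lay within the KO range of 9.34 to 11.24. Values given relative to the CD8 T cell markers share this dependence on WT library 2. For the 16 macrophage and monocyte markers the difference was -0.47 (exact two-sided permutation p = 0.314, n = 4 each), and 14 of the 16 were negative. The smallest p such a test allows with 4 against 4 is 0.0286. Of 12 dendritic cell genes, 11 met the minimum mean and 2 passed the threshold, the MHC class II gene H2-Aa and Cd74, both higher in KO (2 of 11 where 0.211% of all genes were higher and passed). The list summed to 59003 to 154182 in KO and 22237 to 57847 in WT, and most of that sum was MHC class II RNA, with H2-Aa between 28949 and 79428 in KO and between 11605 and 24286 in WT, and H2-Ab1 between 20401 and 60777 in KO and between 6572 and 27074 in WT. Its mean log2, in which each gene weighs the same, differed by 0.95 (exact two-sided permutation p = 0.200, n = 4 each), and 8 of the 11 were positive. The negative ones were Zbtb46 (log2 fold change -0.72), Batf3 (-1.36) and Fscn1 (-0.58), none past the threshold. Flt3 and Clec9a stood for less than 3 fragments in 7 libraries and Batf3 in all 8, so their signs rest on few fragments. Over the 8 libraries Zbtb46 was at 1.10 to 474 and Clec9a at 0 to 468, at 0 in 1 library. Xcr1 was at 77.4 to 753 and above 0 in every library, and Itgax was between 452 and 1092 in KO and between 284 and 530 in WT (log2 fold change 0.90, limma adjusted p = 0.730).

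Of 4 natural killer cell genes, 3 met the minimum mean and 0 passed the threshold or had an unadjusted limma p under 0.05. All 3 had a positive log2 fold change, with a median of 2.14 beside -0.12 over all genes. These values rest on few fragments, less than 3 in 3 libraries for Klrb1c, in 5 for Klre1 and in all 8 for Ncr1. The list summed to 392 to 795 in KO and 1.19 to 451 in WT, and its mean log2 differed by 1.24 (exact two-sided permutation p = 0.371, n = 4 each). Klrb1c was between 245 and 497 in KO and between 1.19 and 313 in WT, while Ncr1 was at 0 in 5 libraries. Relative to the macrophage and to the CD8 T cell markers, none of the 10 ligands passed the threshold (limma adjusted p from 0.473). The 9 fibroblast markers summed to 3945 to 22751 in KO and 8868 to 21385 in WT, highest in KO library 1 and lowest in KO library 4. Of these markers 0 passed the threshold, and 8 had a negative log2 fold change. The part of dendritic cells, natural killer cells and fibroblasts in the ligand values was not tested.

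For each ligand the most similar gene was sought among 87 tested receptors, other ligands, signalling genes and cell type markers, by Pearson's r of log2 values over the 8 libraries. These r values are descriptions, given without a test because each is the highest of 87, and the libraries share differences in depth. Ccl5 was most like Cd247, a T cell receptor chain (r = 0.978, Spearman's rho = 0.81, r = 0.887 without the 2 libraries most extreme in Cd247). Ccl6 was most like Ccr2 (r = 0.891, rho = 0.738, r = 0.875 without 2 libraries). Ccl3 and Ccl22 were both most like Zbtb46, a dendritic cell transcription factor (r = 0.979 and 0.98; 0.933 and 0.769 without 2 libraries), and all 3 genes were lowest in KO library 2. Ccl8 was also most like Zbtb46, but there r went from 0.933 to 0.397 without 2 libraries, so the likeness rests on them. For Ccl2 the best match was Cd14, a monocyte and macrophage receptor (r = 0.656, rho = 0.69), the lowest r of the 10 best matches. Ccl4 was most like Klre1, a natural killer cell receptor at 0 in 2 libraries, but r went from 0.791 to 0.371 without 2 libraries. Likewise Ccl12 was most like Plcb2, a phospholipase that carries receptor signals, with r going from 0.92 to 0.452. Ccl7 was most like Siglech, a plasmacytoid dendritic cell gene (r = 0.816, 0.594 without 2 libraries), and Ccl9 most like the atypical receptor gene Ackr3 (r = 0.777, 0.632 without 2 libraries).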

How the data were processed

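RNA was measured in 8 libraries, 4 KO and 4 WT, grouped by the labels. The deposited signal is, from the table's name, a gene-level read count that the authors scaled by DESeq2. Partek, STAR 2.7.8a, DESeq2 and mm39 appear in the submitters' processing notes without roles; the counter and its use of strand are not given in the sources used here. Many values are fractions of a read, so no count model was run. Values were used as log2(value + 1). Genes with a mean of at least 10 (16120 of 19673) entered limma 3.58.1 (R 4.3.3; lmFit, eBayes with trend), KO against WT, two-sided, Benjamini-Hochberg over all genes, threshold 0.05. Fragments per library were estimated from genes whose mean in the remaining libraries was 20 to 500, leaving out 280 small nuclear and nucleolar RNAs: the number at which a Poisson draw leaves out the observed share with values under 3 (9.41% to 44.4%). Transcript lengths and coding sequences are from GENCODE M21 (GRCm38). The fit was tested on simulated data, with changes put only into genes of high mean and no loss of fragments. That test does not cover genes as low as Ccl3, Ccl4, Ccl5, Ccl8, Ccl12 and Ccl22. Alternatives covered pseudocount, filter, scaling (unweighted TMM, upper quartile, quantile), replicate block, sample weights, robust hyperparameters, reference markers and each library left out. The named genes are Mtdh, the 10 ligands, receptors of the ligands, genes of the pathway lists and, for likeness, the best match among the fixed lists; Ccl17, Ccl25, Rgs1 and the marker genes printed as context were named after their values were seen. Some items are not reported here. Members and lists were chosen with earlier results of these data known. Biological replicates are stated, but p-values measure only the spread between these libraries.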

Additional observations from a re-analysis of the deposited data

Results flagged for a closer look

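In 3 of 22 groups of 4 libraries (the 10 ligands and Mtdh, KO and WT, on the log2 scale) 1 library stood apart from the other 3 by Dixon's test at 95%, where chance flags about 1 in 20 groups. Ccl5 was at 0.946 in WT library 2 and at 92.1 to 178 in the other WT libraries (gap over range 0.856). Ccl6 was at 2998 in KO library 3 and at 6004 to 6490 in the other KO libraries (gap over range 0.899). Ccl22 was at 0 in KO library 2 and at 153 to 231 in the other KO libraries (gap over range 0.925).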

How the results depend on the processing

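Under 20 alternatives none of the 10 ligands passed the threshold (limma adjusted p 0.244 to 0.998), nor did any listed receptor, other CC ligand or signalling gene. Ccl4, Ccl5 and Ccl12 kept their direction in all 20. Ccl2 and Ccl6 turned only relative to the CD8 markers, a scale that shifts all genes alike. The other 5 turned in 3 to 5 of the 20. Over all genes 38 passed; the count was 63 with a pseudocount of 10, 15 with a minimum mean of 50, 112 with sample weights, 73 relative to the macrophage markers, 0 relative to the CD8 T cell markers and 7 to 70 with a library left out. With the replicate number as a block it was 0; same-numbered libraries correlated at 0.0162 to 0.0757, below 0.1, so the numbers were not taken to pair them. The ligands' median was -0.83 relative to the CD8 markers and -0.31 to 0.71 with a library left out. Directions turned, none past the threshold, as follows. Relative to the CD8 markers: Ccl2 -0.48, Ccl6 -0.32, Ccr2 -0.45 and Ccrl2 -0.23. Relative to the macrophage markers: Ccl3 0.31, Ccl7 0.42, Ccl9 0.35 and Ccr1 0.35. Pseudocount of 10: Ccl8 0.053 and Ccl22 0.053. Quantile normalization: Ccl3 0.26 and Ccl22 0.086. Sample weights: Ccl3 0.29, Ccl8 0.65 and Ccl22 0.13. With a library left out, log2 fold changes ran from -0.74 to 1.06 for Ccl3, -0.36 to 0.13 for Ccl7, -1.63 to 1.16 for Ccl8, -0.39 to 0.033 for Ccl9 and -1.37 to 1.25 for Ccl22. The median of all genes was -0.12, and was 0.36 relative to the macrophage and -0.86 relative to the CD8 markers, which the subtraction of the markers itself produces. The Mtdh call ended with a minimum mean of 50 (adjusted p = 0.0945), the replicate block (0.0627), either marker reference (0.757 and 0.835) and without KO library 2, 3 or 4 or WT library 1 or 2 (up to 0.241); its log2 fold change was -1.23 with the first 2 of these and -1.04 to -1.33 without a library. The cause was not tested elsewhere. By the Poisson estimate, values of Ccl3, Ccl5, Ccl8, Ccl12 and Ccl22 rest on few fragments. That estimate cannot tell a gene absent from a library's cells from one that was missed, so the fragment numbers may be too low.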
